A study of Mus musculus with 18 samples.

Results

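In all, 10 genes of the interleukin 1 (IL-1) system were followed in 3 sorted subsets of mouse colon lamina propria cells: the ligands Il1a, Il1b and Il18, the antagonist Il1rn, the receptors Il1r1, Il1r2 and Il1rap, the binding protein Il18bp, and the inflammasome genes Nlrp3 and Casp1. They were chosen by gene symbol in the array annotation, taking only probe sets with 1 symbol. Of the 10 genes, 9 had such a probe set, exactly 1 each, and were among the 14003 genes tested. For Il1r1, which encodes the signalling IL-1 receptor, no probe set carried its symbol alone, and it was not analysed here. All 9 measured genes lay above the level of the filter on low values, 3.51 on the log2 scale, on all 18 arrays.

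The cells came from the colon of BALB/c mice aged 8 weeks, which were untreated or received 2% dextran sulfate sodium (DSS), which damages the epithelial lining and is used as a colitis model. From an MHC+CD11chigh gate, 3 subsets were sorted in each condition, CD103+CD11b-, CD103+CD11b+ and CD103-CD11b+, which gives 6 groups of 3 arrays. Each of 6 numbered experiments supplied 1 array per subset, experiments 1 to 3 without and 4 to 6 with DSS, and the replicate numbers below are these experiment numbers. The treatment is read from the titles, where the untreated arrays carry no DSS mark. No experiment held both conditions, so DSS and experiment cannot be told apart. The labels do not give the number of mice behind an array, whether replicates are separate animals, or the days of DSS, and p-values therefore measure the spread between these samples, which may be technical. Each array started from 5 ng of total RNA that was amplified before labelling.

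IL-1 alpha and IL-1 beta bind the same receptor, IL1R1, which signals together with the accessory protein IL1RAP through MyD88 to NF-kappaB. The system is known for its brakes: the antagonist encoded by Il1rn occupies IL1R1 without signalling, and IL1R2 is a decoy that binds IL-1 and lacks a signalling domain. IL-1 beta and IL-18 are made as precursors that caspase 1 cleaves after an inflammasome such as that of NLRP3 has formed, so a level of RNA does not give the level of active cytokine. Macrophages and dendritic cells of the intestine are among the sources of IL-1 beta, and IL-18 binding protein neutralizes IL-18.

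The promoters of the 4 members called between subsets, Il1a, Il1rn, Il1r2 and Il18bp, are shown beside that of Il1b, the direct neighbour of Il1a on chromosome 2, so that the start regions behind the contrasting values can be compared. Il1r2 lies next to Il1r1 on chromosome 1 and Casp1 next to Casp4 on chromosome 9. Each sequence is the 250 bases before an annotated start, from RefSeq on GRCm38.p6, written 5′ to 3′ on the strand of the gene. All 10 members had an entry, with 14 starts in all. Capitals mark matches, on either strand, to TATAAA (the TATA box), TGANTCA (AP-1), TTNNGNAA (C/EBP), GAGGAA (the PU.1 core) and GGGANNNNCC (NF-kappaB). Il1a is at chr2:129309973-129310222 on the minus strand, Il1b at chr2:129371140-129371389 on the minus strand, starts 1 and 3 of the 3 of Il1rn at chr2:24336610-24336859 and chr2:24345121-24345370 on the plus strand, Il1r2 at chr1:40085843-40086092 on the plus strand, and Il18bp at chr7:102018233-102018482 on the minus strand.
Il1a: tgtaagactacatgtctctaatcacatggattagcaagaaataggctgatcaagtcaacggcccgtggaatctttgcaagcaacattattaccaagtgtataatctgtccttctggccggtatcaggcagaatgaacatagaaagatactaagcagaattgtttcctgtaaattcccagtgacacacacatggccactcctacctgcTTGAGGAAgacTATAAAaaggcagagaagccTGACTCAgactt
Il1b: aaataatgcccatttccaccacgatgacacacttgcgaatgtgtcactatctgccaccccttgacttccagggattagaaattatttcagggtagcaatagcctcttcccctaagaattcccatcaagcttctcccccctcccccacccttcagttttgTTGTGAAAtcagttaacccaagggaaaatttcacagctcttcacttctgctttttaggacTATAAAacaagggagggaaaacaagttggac
Il1rn start 1: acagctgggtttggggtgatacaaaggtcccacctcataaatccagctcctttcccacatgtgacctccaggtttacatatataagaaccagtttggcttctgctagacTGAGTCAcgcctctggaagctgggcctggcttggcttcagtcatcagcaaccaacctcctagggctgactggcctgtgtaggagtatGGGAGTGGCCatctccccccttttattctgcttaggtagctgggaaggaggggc
Il1rn start 3: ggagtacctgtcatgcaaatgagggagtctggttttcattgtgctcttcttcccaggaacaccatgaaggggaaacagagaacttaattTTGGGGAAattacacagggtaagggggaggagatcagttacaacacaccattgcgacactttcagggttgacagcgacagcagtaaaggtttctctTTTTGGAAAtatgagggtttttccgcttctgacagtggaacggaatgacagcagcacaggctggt
Il1r2: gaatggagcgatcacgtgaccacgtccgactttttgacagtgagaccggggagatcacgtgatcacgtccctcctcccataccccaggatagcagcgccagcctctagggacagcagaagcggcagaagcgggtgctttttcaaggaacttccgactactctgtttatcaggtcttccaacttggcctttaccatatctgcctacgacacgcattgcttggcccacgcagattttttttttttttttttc
Il18bp: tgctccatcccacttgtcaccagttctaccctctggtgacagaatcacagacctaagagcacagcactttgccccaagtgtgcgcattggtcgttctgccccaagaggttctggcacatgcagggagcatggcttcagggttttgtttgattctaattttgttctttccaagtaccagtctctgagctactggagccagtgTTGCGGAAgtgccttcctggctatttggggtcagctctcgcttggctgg
The TATA box letters stood 32 to 27 bases before the start of Il1a and 31 to 26 before that of Il1b. They were found in 12.4% of 32851 RefSeq promoter windows of the same length. This share and those below count a match at any position in the window, on either strand. Il1a held an AP-1 match 12 to 6 bases before its start, and Il1rn start 1 held one 141 to 135 bases before, against 6.75% of all windows. The C/EBP letters, present in 36.8% of all windows, matched in Il1a, in Il1b and at Il1rn start 3, where 2 of the 3 matches overlap each other, and in Il18bp, where the same letters, 49 to 42 bases before the start, match on both strands. In Il1a the C/EBP match overlaps that of the PU.1 core, which 23.3% of all windows hold. The NF-kappaB letters matched at Il1rn start 1 and in 17.6% of all windows. None of these letter strings was found in the Il1r2 window. A match describes the letters only.

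The order of the sort genes over the subsets followed the labels in each condition. Itgae, which encodes CD103, averaged 9.37 in untreated CD103+CD11b-, 8.84 in CD103+CD11b+ and 6.35 in CD103-CD11b+ cells, and after DSS 9.61, 9.06 and 7.44. In CD103-CD11b+ cells Itgae was thus higher after DSS, by 1.08 ± 0.13 (adjusted p = 0.00103). Itgam, which encodes CD11b, averaged 5.14, 7.31 and 7.93 untreated and 6.13, 7.36 and 8.01 after DSS. Itgax, which encodes CD11c, lay between 8.36 and 9.5 on all arrays. It was not level over the subsets. After DSS it averaged 8.58 in CD103+CD11b- and 9.27 in CD103-CD11b+ cells, a difference of -0.69 ± 0.16 (adjusted p = 0.00845 by limma). Some markers of other cells moved with the subsets. The mean level of 12 macrophage markers of 13 listed was 6.24 to 6.43 on untreated CD103+CD11b- arrays, 6.97 to 7.12 on CD103+CD11b+ arrays and 7.77 to 8.37 on CD103-CD11b+ arrays, and after DSS 6.67 to 6.78, 6.93 to 7.04 and 7.71 to 8.03. Set against CD103-CD11b+ cells, the CD103+CD11b- subset had 9 of these 12 markers called lower untreated and 8 after DSS. Timd4 alone was called the other way, at 0.74 ± 0.20 untreated and 0.66 ± 0.20 after DSS (adjusted p = 0.0192 and 0.0432 by limma). The group means of Cd163 lay under the level of 3.51 in untreated CD103+CD11b- and CD103+CD11b+ cells. The mean of 8 monocyte markers of 11 listed was 7.02 to 7.21, 7.22 to 7.40 and 7.59 to 8.00 on untreated arrays of these subsets and 7.22 to 7.34, 7.32 to 7.47 and 7.85 to 8.03 after DSS. Between CD103+CD11b- and CD103-CD11b+ cells 3 of the 7 tested were called untreated and 5 after DSS, all lower in the former. Of the 13 neutrophil markers Trem1 averaged 5.27, 7.82 and 7.62 untreated and 5.63, 8.15 and 8.21 after DSS, and Csf3r 4.04, 4.54 and 5.88 untreated and 4.85, 5.26 and 6.31 after DSS. The neutrophil list as a whole did not follow them. Between CD103+CD11b- and CD103-CD11b+ cells 2 of 10 tested were called lower and 0 higher in either condition. There 10.3% of all genes were called untreated and 8.53% after DSS. The median difference of the list was -0.24 untreated and 0.04 after DSS. All 12 epithelial markers were above the level of 3.51 in every group. Their mean was 7.83 to 8.32, 8.22 to 8.66 and 8.11 to 8.46 on untreated arrays of the 3 subsets. After DSS it was 7.53 to 7.86, 8.03 to 8.08 and 7.70 to 8.25. The median DSS difference of these markers over all subsets was -0.40, against -0.01 for all genes. The part of these cells in the results below was not tested. In such bulk samples fewer cells of a type and less RNA per cell cannot be told apart.

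Across the subsets, the IL-1 brakes Il1rn and Il1r2 were lower in CD103+CD11b- cells than in both CD11b+ subsets, in untreated mice and after DSS, whereas Il1b, Il1rap, Il18, Nlrp3 and Casp1 were called in no comparison. In untreated cells 4 of the 9 members were called between CD103+CD11b- and CD103-CD11b+ cells, Il1a, Il1rn, Il1r2 and Il18bp, all lower in CD103+CD11b- cells, where 10.3% of all genes were called. Between CD103+CD11b- and CD103+CD11b+ cells 2 members were called, Il1rn and Il1r2, both lower in CD103+CD11b- cells, where 6.86% of all genes were called. Between CD103+CD11b+ and CD103-CD11b+ cells 0 of 9 were called by limma, 2 of them at an unadjusted p under 0.05, where 4.11% of all genes were called. After DSS the counts were 3 (Il1rn, Il1r2 and Il18bp), 2 (Il1rn and Il1r2) and 1 (Il1rn), again all lower in the first subset named, where 8.53%, 5.96% and 1.58% of all genes were called. A call here is an adjusted p under 0.05, from limma with Benjamini-Hochberg adjustment over the 14003 genes.

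The groups of 3 arrays did not overlap for 6 of 9 members between the untreated CD103+CD11b- and CD103-CD11b+ subsets, where they did not overlap for 22.6% of all genes. The count was 6 against CD103+CD11b+ cells (22.0% of all genes) and 2 between CD103+CD11b+ and CD103-CD11b+ cells (17.4%). Some gaps between CD103+CD11b- and CD103+CD11b+ cells were narrow. The nearest untreated arrays read 6.55 and 6.55 for Il1a, 10.75 and 10.73 for Il1b, and 5.88 and 5.83 for Il1rap. After DSS the 3 counts were 5, 5 and 3, where 24.6%, 22.8% and 16.5% of all genes were separated. The median difference of the members was -0.53, -0.38 and -0.09 in untreated cells and -0.26, -0.38 and -0.19 after DSS, in the same order of comparisons. The medians of all genes lay between -0.06 and 0.07.

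**Figure D1:**
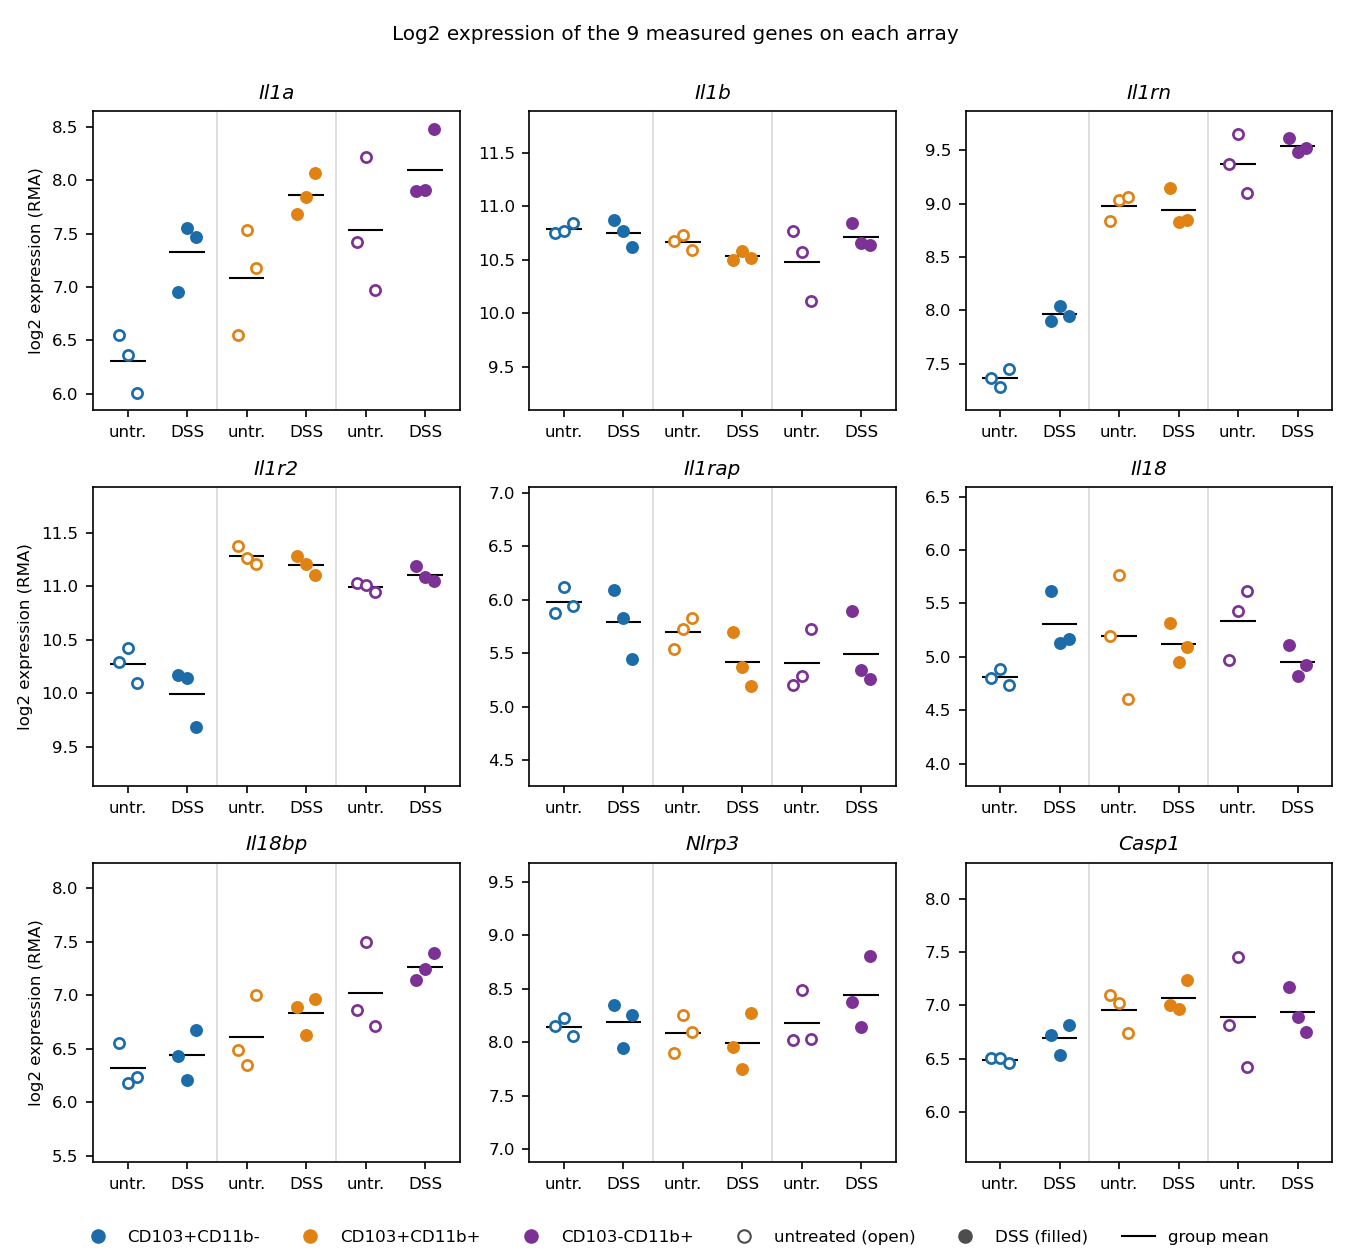
Log2 RMA expression (vertical axes) of the 9 measured genes on each of the 18 arrays, by subset and condition, with open points for untreated, filled points for DSS and a line at each group mean of 3 arrays. The points of Il1rn and Il1r2 in CD103+CD11b- cells lie below all points of the other subsets, while Il1b stays between 10.11 and 10.87 on all arrays.

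Of the ligands, Il1a (probe set 10487588) was lowest in CD103+CD11b- cells. Its log2 level on the 3 untreated arrays of these cells was 6.55, 6.36 and 6.01, against 6.55, 7.53 and 7.18 in CD103+CD11b+ cells and 7.42, 8.22 and 6.97 in CD103-CD11b+ cells. After DSS the levels were 6.95, 7.55 and 7.47 in CD103+CD11b-, 7.68, 7.84 and 8.07 in CD103+CD11b+, and 7.90, 7.91 and 8.48 in CD103-CD11b+ cells. The CD103+CD11b- arrays thus lay below all CD103-CD11b+ arrays in either condition, and the spread within a group was wider than for the brakes below, with an SD of up to 0.64. In untreated cells the log2 difference from CD103-CD11b+ cells was -1.23 ± 0.28 (SE; 2.35-fold lower, adjusted p = 0.00645). The difference from untreated CD103+CD11b+ cells was -0.78 ± 0.28 (adjusted p = 0.119), and after DSS Il1a differed from CD103-CD11b+ cells by -0.78 ± 0.28 (adjusted p = 0.11). With the experiment number as a replicate block these comparisons passed the threshold, at an adjusted p of 0.04 and 0.0353. Within the experiments Il1a was lower in the CD103+CD11b- than in the CD103-CD11b+ subset in 6 of 6, with differences of -1.86 to -0.37.

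Il1b (probe set 10487597), the neighbour of Il1a, was the member that varied least over the arrays. Untreated arrays read 10.75, 10.77 and 10.84 in CD103+CD11b-, 10.68, 10.73 and 10.59 in CD103+CD11b+, and 10.77, 10.57 and 10.11 in CD103-CD11b+ cells. DSS arrays read 10.87, 10.77 and 10.62, then 10.50, 10.58 and 10.52, then 10.84, 10.66 and 10.64 in the same order. Its 6 group means spanned 0.30, against 1.79 for Il1a. The difference with the lowest p was that between the untreated CD103+CD11b- and CD103-CD11b+ subsets, 0.30 ± 0.14 (95% interval 0.01 to 0.60, unadjusted p = 0.0458, adjusted p = 0.237 by limma), and 1 CD103-CD11b+ array at 10.11 stood below the other 17. Against CD103+CD11b+ cells Il1b was higher in CD103+CD11b- cells within 6 of 6 experiments, by 0.05 to 0.37, and the model gave differences of 0.12 ± 0.14 untreated and 0.22 ± 0.14 after DSS, neither called.

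Il1rn (probe set 10469816), the receptor antagonist, showed the largest subset difference of the members. In untreated mice it read 7.37, 7.28 and 7.45 in CD103+CD11b- cells, 8.84, 9.03 and 9.06 in CD103+CD11b+ cells, and 9.37, 9.65 and 9.10 in CD103-CD11b+ cells. After DSS it read 7.90, 8.04 and 7.95, then 9.15, 8.83 and 8.85, then 9.61, 9.48 and 9.52. In either condition the 3 subsets did not overlap, in the order CD103+CD11b-, CD103+CD11b+, CD103-CD11b+. The untreated difference between CD103+CD11b- and CD103-CD11b+ cells was -2.01 ± 0.14 (4.02-fold lower, adjusted p = 8.87e-09), and that against CD103+CD11b+ cells was -1.61 ± 0.14 (3.05-fold lower, adjusted p = 2.64e-07). After DSS these differences were -1.58 ± 0.14 (2.99-fold lower, adjusted p = 2.68e-07) and -0.98 ± 0.14 (1.97-fold lower, adjusted p = 9.81e-05). Within experiments Il1rn was lower in CD103+CD11b- cells in 6 of 6, with differences of -2.36 to -1.45 from CD103-CD11b+ and -1.75 to -0.79 from CD103+CD11b+ cells.

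Between the CD11b+ subsets Il1rn was lower in the CD103+CD11b+ than in the CD103-CD11b+ subset within 6 of 6 experiments, with differences of -0.67 to -0.04. The difference was called after DSS, at -0.60 ± 0.14 (1.51-fold lower, adjusted p = 0.0328), and not in untreated cells, at -0.40 ± 0.14 (adjusted p = 0.138). The DSS call was lost without CD103-CD11b+ replicate 4, 5 or 6 or CD103+CD11b+ replicate 5 or 6 (adjusted p of up to 0.146), and when the model held those 2 groups alone (0.068). The untreated difference passed without CD103-CD11b+ replicate 3 (-0.53, adjusted p = 0.0442) and after quantile normalization was applied again (-0.50, 0.0441).

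Il1r2 (probe set 10345752), the decoy receptor, was likewise lowest in CD103+CD11b- cells, but its highest values were those of CD103+CD11b+ cells. Untreated arrays read 10.29, 10.42 and 10.10 in CD103+CD11b-, 11.38, 11.27 and 11.21 in CD103+CD11b+, and 11.03, 11.01 and 10.95 in CD103-CD11b+ cells. DSS arrays read 10.17, 10.14 and 9.68, then 11.28, 11.21 and 11.11, then 11.19, 11.09 and 11.05. The 6 CD103+CD11b- arrays all lay below the other 12. Untreated CD103+CD11b- cells differed from CD103+CD11b+ cells by -1.02 ± 0.13 (2.02-fold lower, adjusted p = 4.06e-05) and from CD103-CD11b+ cells by -0.72 ± 0.13 (1.65-fold lower, adjusted p = 0.00105). After DSS these differences were -1.20 ± 0.13 (2.30-fold lower, adjusted p = 7.98e-06) and -1.11 ± 0.13 (2.16-fold lower, adjusted p = 1.15e-05).

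Among the CD11b+ subsets Il1r2 was higher in the CD103+CD11b+ than in the CD103-CD11b+ subset in 6 of 6 experiments, by 0.06 to 0.35, but not called: 0.29 ± 0.13 untreated (95% interval 0.01 to 0.58, adjusted p = 0.287) and 0.09 ± 0.13 after DSS (-0.19 to 0.38, adjusted p = 0.951). Il1rn and Il1r2 thus ran in opposite directions between these subsets within every experiment. Whether the members differ from each other was not tested. Sirpa, Itgam and the other cDC2 markers moved with both genes: 7 of 7 were called lower in CD103+CD11b- than in either CD11b+ subset, in both conditions. Of these, Itgam encodes CD11b, by which the cells were sorted, so its difference between these subsets comes with the sort. Trem1 was called lower in these comparisons too, by -2.35 ± 0.24 to -2.58 ± 0.24. The part of these markers, and of the macrophage and monocyte markers above, in the differences of Il1rn, Il1r2, Il1a and Il18bp was not tested.

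**Figure D2:**
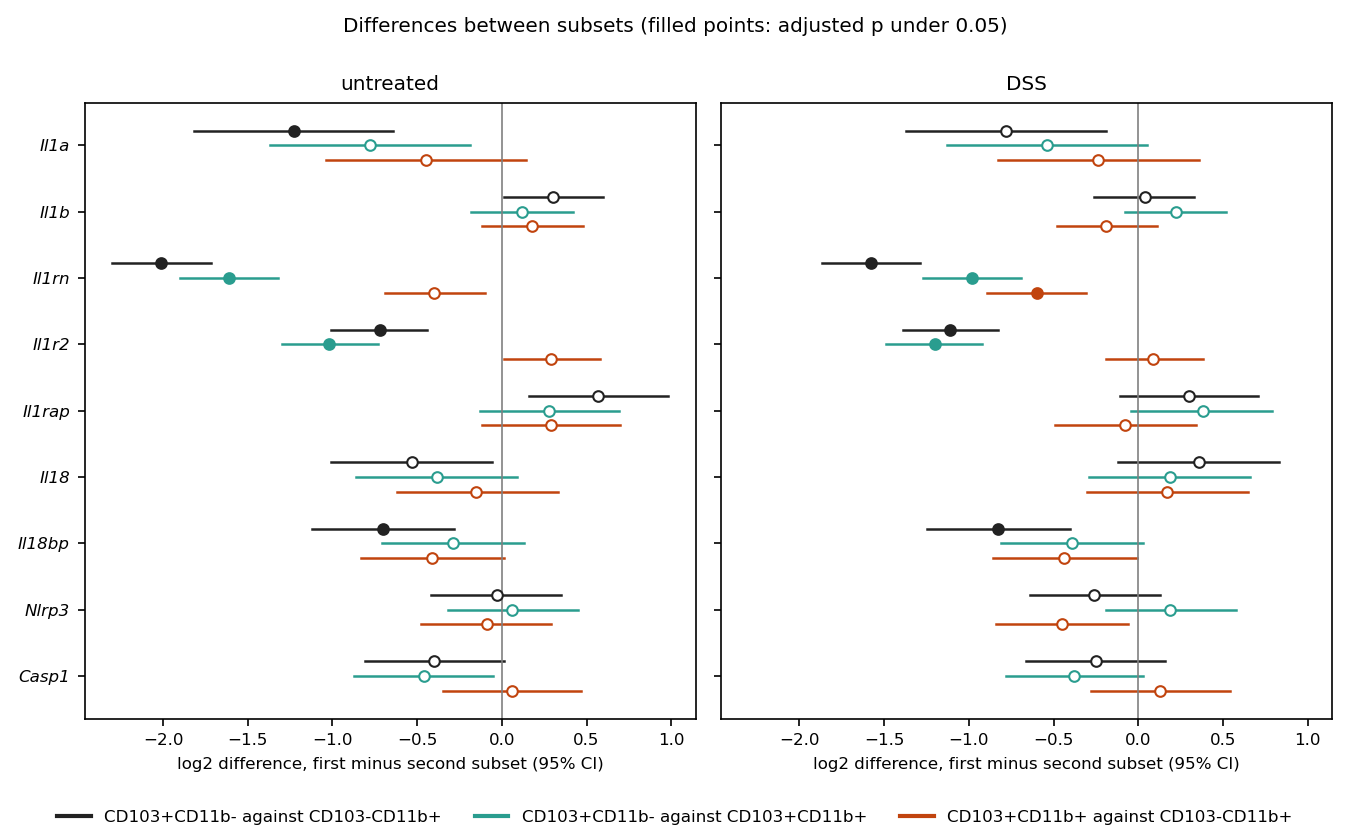
Log2 differences between subsets (horizontal axes, first minus second subset, with 95% intervals from limma) for the 9 measured genes in untreated mice and after DSS, where filled points have an adjusted p under 0.05. The filled points are those of Il1rn, Il1r2, Il1a and Il18bp, and all lie below 0.

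**Figure D3:**
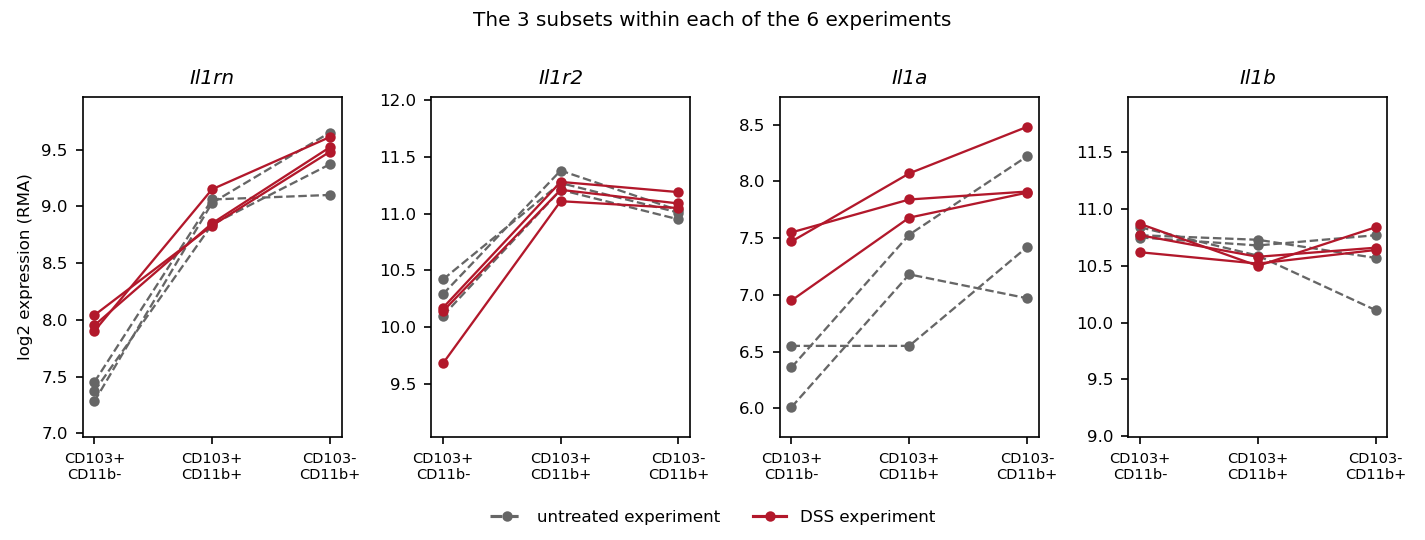
Log2 RMA expression (vertical axes) of Il1rn, Il1r2, Il1a and Il1b in the 3 subsets, where each line joins the 3 arrays of 1 experiment, dashed grey for the 3 untreated and red for the 3 DSS experiments. Lines of Il1rn and Il1r2 rise from CD103+CD11b- to both CD11b+ subsets in 6 of 6 experiments, and those of Il1b change by at most 0.73 between any pair with CD103+CD11b-.

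Il1rap (probe set 10434845), the accessory chain of the signalling receptor, ran the other way. Untreated arrays read 5.88, 6.12 and 5.94 in CD103+CD11b-, 5.54, 5.73 and 5.83 in CD103+CD11b+, and 5.20, 5.29 and 5.73 in CD103-CD11b+ cells. After DSS the values were 6.09, 5.83 and 5.45, then 5.70, 5.37 and 5.19, then 5.89, 5.34 and 5.26, and the groups overlapped. CD103+CD11b- cells were above both other subsets within 6 of 6 experiments. The untreated difference from CD103-CD11b+ cells was 0.57 ± 0.20 (1.49-fold, unadjusted p = 0.00897, adjusted p = 0.076), which was not called. It was called with the replicate block (adjusted p = 0.00928) and without untreated CD103-CD11b+ replicate 3 (0.73, adjusted p = 0.0318).

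Of the IL-18 genes, the binding protein differed between subsets and the cytokine did not pass the test. Il18bp (probe set 10566050) read 6.55, 6.18 and 6.24 in untreated CD103+CD11b-, 6.49, 6.35 and 7.0 in CD103+CD11b+, and 6.86, 7.50 and 6.71 in CD103-CD11b+ cells. After DSS it read 6.43, 6.21 and 6.68, then 6.89, 6.63 and 6.97, then 7.14, 7.25 and 7.40. CD103+CD11b- arrays lay below those of CD103-CD11b+ cells in both conditions. CD103+CD11b+ cells had the mean in between, overlapping both other subsets untreated and only CD103+CD11b- cells after DSS. The difference between CD103+CD11b- and CD103-CD11b+ cells was -0.70 ± 0.20 untreated (1.63-fold lower, adjusted p = 0.0302) and -0.83 ± 0.20 after DSS (1.77-fold lower, adjusted p = 0.0113). The untreated call was lost without CD103+CD11b- replicate 2 or 3 or CD103-CD11b+ replicate 2 (-0.46, adjusted p = 0.178), and the DSS call without CD103+CD11b- replicate 5 (0.068) or CD103-CD11b+ replicate 6 (0.0568). With array weights or on only these groups the untreated adjusted p was 0.0628 or 0.0873.

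Il18 (probe set 10585194) lay between 4.61 and 5.77 on all arrays. Untreated arrays read 4.80, 4.89 and 4.74 in CD103+CD11b-, 5.20, 5.77 and 4.61 in CD103+CD11b+, and 4.97, 5.43 and 5.62 in CD103-CD11b+ cells. DSS arrays read 5.62, 5.13 and 5.17, then 5.32, 4.95 and 5.09, then 5.11, 4.82 and 4.92. The order of CD103+CD11b- and CD103-CD11b+ cells thus differed between conditions, without overlap in either. The differences were -0.53 ± 0.23 untreated (adjusted p = 0.18) and 0.36 ± 0.23 after DSS (adjusted p = 0.467), neither called.

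Neither inflammasome member was called between subsets. Nlrp3 (probe set 10376513), the sensor, read 8.15, 8.23 and 8.06 in untreated CD103+CD11b-, 7.90, 8.26 and 8.10 in CD103+CD11b+, and 8.02, 8.49 and 8.03 in CD103-CD11b+ cells, and after DSS 8.35, 7.95 and 8.26, then 7.96, 7.75 and 8.27, then 8.38, 8.14 and 8.81. All groups overlapped, and the untreated difference between CD103+CD11b- and CD103-CD11b+ cells was -0.03 ± 0.18, with a 95% interval of -0.42 to 0.35. The Nlrp3 difference with the lowest p was that between CD103+CD11b+ and CD103-CD11b+ cells after DSS, -0.45 ± 0.18 (95% interval -0.84 to -0.06, unadjusted p = 0.0246, adjusted p = 0.386), with the first subset lower in 5 of 6 experiments. Casp1 (probe set 10582985), which encodes the protease that matures IL-1 beta and IL-18, read 6.51, 6.51 and 6.46 in untreated CD103+CD11b- cells, 7.10, 7.02 and 6.74 in CD103+CD11b+, and 6.82, 7.45 and 6.42 in CD103-CD11b+ cells. After DSS it read 6.72, 6.54 and 6.82, then 7.0, 6.97 and 7.24, then 7.17, 6.89 and 6.75. It was lower in the CD103+CD11b- than in the CD103+CD11b+ subset within 6 of 6 experiments, with differences of -0.59 to -0.28, without overlap in either condition and without a call: -0.46 ± 0.19 untreated (adjusted p = 0.2) and -0.38 ± 0.19 after DSS (adjusted p = 0.384). Against CD103-CD11b+ cells Casp1 was called without the untreated CD103-CD11b+ replicate 3 (-0.64, adjusted p = 0.0344; -0.40 ± 0.19 and 0.261 with it).

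Other inflammasome genes were lower in CD103+CD11b- cells where they were called. Of 18 tested genes of 24 listed, 0 were higher and 6 lower than in CD103-CD11b+ cells in untreated mice, where 10.3% of all genes were called in either direction, and 0 higher and 4 lower after DSS, against 8.53% of all genes. The median of the list was -0.24 and -0.25, against 0.01 and -0.01 for all genes. Mefv, which encodes the sensor pyrin, averaged 6.74 ± 0.08 (SD, n = 3) in untreated CD103+CD11b-, 8.43 ± 0.20 in CD103+CD11b+ and 8.59 ± 0.28 in CD103-CD11b+ cells. It differed by -1.69 ± 0.17 and -1.85 ± 0.17 untreated (adjusted p = 1.26e-06 and 2.44e-07) and by -1.74 ± 0.17 and -1.95 ± 0.17 after DSS, and was called under all alternatives tried.

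P2rx7, the ATP-gated channel that triggers NLRP3, differed between CD103+CD11b- and CD103-CD11b+ cells by -1.06 ± 0.24 untreated and -1.11 ± 0.24 after DSS, and the channel gene Panx1 by -1.50 ± 0.17 and -0.90 ± 0.17. In untreated cells Panx1 also differed between CD103+CD11b- and CD103+CD11b+ cells, by -0.87 ± 0.17. Naip2, a receptor for bacterial secretion proteins, differed between CD103+CD11b- and CD103-CD11b+ cells by -0.67 ± 0.14 and -0.59 ± 0.14, the latter lost without DSS CD103+CD11b- or CD103-CD11b+ replicate 4 (adjusted p of up to 0.0838). The Naip genes are close relatives, and cross-hybridization between them was not tested. Nlrc4, the partner of the NAIP proteins, differed by -0.96 ± 0.26 and the caspase gene Casp4 by -0.59 ± 0.15 in untreated cells. Both calls were lost without CD103-CD11b+ replicate 2, that of Nlrc4 also without CD103+CD11b- replicate 2 or 3 and that of Casp4 without CD103+CD11b- replicate 1 (adjusted p of up to 0.127 and 0.092). Of the list, 2 genes were lower and 0 higher in the untreated CD103+CD11b- subset than in CD103+CD11b+ cells, 1 and 0 after DSS, and between the CD11b+ subsets 1 was lower and 0 higher untreated and 0 were called after DSS. Of all genes 6.86%, 5.96%, 4.11% and 1.58% were called in these comparisons. The gene called between the CD11b+ subsets was Panx1 at -0.63 ± 0.17 (adjusted p = 0.0443), whose call was lost without any of 5 of the 6 arrays (up to 0.14).

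The receptors outside the members differed mostly through Il18rap, the accessory chain of the IL-18 receptor. It averaged 4.95 ± 0.40 (SD, n = 3) in untreated CD103+CD11b-, 7.18 ± 0.04 in CD103+CD11b+ and 6.0 ± 0.49 in CD103-CD11b+ cells, and 5.07 ± 0.30, 6.48 ± 0.27 and 5.93 ± 0.57 after DSS. CD103+CD11b+ cells thus had the highest mean in either condition. The difference between CD103+CD11b- and CD103+CD11b+ cells was -2.23 ± 0.27 untreated (adjusted p = 1.44e-05) and -1.42 ± 0.27 after DSS (adjusted p = 0.002), and both held under all alternatives. CD103+CD11b+ exceeded CD103-CD11b+ cells by 1.18 ± 0.27 untreated (adjusted p = 0.0164), a call lost without CD103+CD11b+ replicate 1 or CD103-CD11b+ replicate 2 (up to 0.0993). CD103+CD11b- cells differed from CD103-CD11b+ cells by -1.05 ± 0.27 (adjusted p = 0.0149, up to 0.0806 without 1 array, namely replicate 1 or 3 of either subset). Of 4 tested receptor genes of 7 listed, the others called were Il18r1, the ligand-binding chain of the IL-18 receptor, at -0.76 ± 0.21 between the untreated CD103+CD11b- and CD103+CD11b+ subsets and Sigirr, an inhibitory receptor of the family, at 0.51 ± 0.13 between the same subsets after DSS. The Il18r1 call was lost without any of 4 of the 6 arrays and the Sigirr call without any of 3 (adjusted p of up to 0.158 and 0.128). Of the ligand genes outside the members, 1 of 6 was tested: Il33, the alarmin, averaged 4.27 ± 0.18 in CD103+CD11b- and 5.54 ± 0.38 in CD103-CD11b+ cells after DSS, a difference of -1.27 ± 0.29 (adjusted p = 0.00739, and 0.0513 without DSS CD103-CD11b+ replicate 4).

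Genes downstream of the receptor were called in both directions. Of 17 tested signalling genes of 20 listed, 1 was higher and 2 lower in the untreated CD103+CD11b- subset than in CD103-CD11b+ cells, and 2 were higher and 0 lower than in CD103+CD11b+ cells. Of all genes 10.3% and 6.86% were called there. Mapk8, which encodes the kinase JNK1, was higher by 0.56 ± 0.15 and 0.78 ± 0.15, and Irak2, a kinase recruited to MyD88, differed from CD103-CD11b+ cells by -0.60 ± 0.14. Against CD103-CD11b+ cells the calls of Mapk8 and Irak2 were each lost without 2 of the 6 arrays (adjusted p of up to 0.103 and 0.059). Tollip at -0.57 ± 0.18 and Mapk14 at 0.84 ± 0.24 had adjusted p-values of 0.0487 and 0.0408, and of up to 0.258 and 0.23 without 1 array. After DSS 0, 1 (Mapk8, 0.66 ± 0.15) and 1 (Irak2, -0.65 ± 0.14 between CD103+CD11b+ and CD103-CD11b+ cells) were called, the latter lost without any of 5 of the 6 arrays (adjusted p of up to 0.137). In the untreated CD103+CD11b+ subset set against CD103-CD11b+ cells 1 was higher, the kinase gene Ikbkb at 0.66 ± 0.17 (adjusted p = 0.0272, up to 0.144 without 1 array).

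Of the 16 IL-1 and NF-kappaB response genes, all tested, 1 was higher and 3 lower in the untreated CD103+CD11b- subset than in CD103-CD11b+ cells, and 1 and 2 after DSS. Against CD103+CD11b+ cells 1 was higher and 1 lower in either condition. Of all genes 10.3% and 8.53% were called in the first pair of comparisons and 6.86% and 5.96% in the second. Ptgs2, the inducible cyclooxygenase gene, averaged 8.95 ± 0.09 (SD, n = 3) in untreated CD103+CD11b- cells against 10.54 ± 0.16 in CD103+CD11b+ and 10.43 ± 0.32 in CD103-CD11b+ cells, and 9.70 ± 0.12, 10.72 ± 0.05 and 10.91 ± 0.02 after DSS. Its differences between subsets were -1.60 ± 0.14 and -1.48 ± 0.14 untreated and -1.02 ± 0.14 and -1.21 ± 0.14 after DSS, called under all alternatives. The neutrophil-attracting chemokine genes Cxcl1 and Cxcl2 differed between the untreated CD103+CD11b- and CD103-CD11b+ subsets by -1.06 ± 0.15 and -0.69 ± 0.14. After DSS Cxcl2 differed by -0.45 ± 0.14 (adjusted p = 0.0489), a call that no fit leaving out 1 of the 6 arrays kept (up to 0.171). The adhesion molecule gene Icam1 was the higher one, by 0.45 ± 0.13 to 0.59 ± 0.13 in the 4 comparisons. Against untreated CD103-CD11b+ cells the Icam1 call was lost without any 1 of the 6 arrays (adjusted p of up to 0.114), with the replicate block, with quantile normalization again and on only the 2 groups compared. It was lost without any of 4 arrays against untreated CD103+CD11b+ cells (up to 0.116) and without either of 2 arrays in each DSS comparison (up to 0.0884). Cxcl1 was also lower in the untreated CD103+CD11b+ subset than in CD103-CD11b+ cells, at -0.65 ± 0.15, lost without CD103+CD11b+ replicate 1 or CD103-CD11b+ replicate 2 (up to 0.104).

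The comparison of DSS with untreated cells asks how the members change in colitis. No member was called by limma in any subset: 0 of 9 in CD103+CD11b- cells (3 at an unadjusted p under 0.05), 0 of 9 in CD103+CD11b+ cells (1) and 0 of 9 in CD103-CD11b+ cells (0), where 0.129%, 0.0857% and 0.100% of all genes were called. Over all subsets, with the mean of the 3 arrays of each experiment, 0 of 9 were called and 2 had an unadjusted p under 0.05, where 0.186% of all genes were called. The groups of arrays were separated for 4, 2 and 1 of the members in the 3 subsets, where 12.3%, 15.5% and 11.5% of all genes were separated, and for 3 over all subsets, against 15.9% of all genes. Few genes of any kind passed in these comparisons, and a p that misses the threshold does not show that a level stayed the same.

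Il1a had the largest difference by DSS among the members. Its mean over the 3 subsets was 6.84, 7.37 and 6.72 in the untreated experiments and 7.51, 7.76 and 8.01 in the DSS experiments, so that each DSS experiment lay above each untreated one. The difference was 0.79 ± 0.17 (1.72-fold, 95% interval 0.40 to 1.18, unadjusted p = 0.00118, adjusted p = 0.146). By subset it was 1.01 ± 0.28 in CD103+CD11b-, 0.78 ± 0.28 in CD103+CD11b+ and 0.56 ± 0.28 in CD103-CD11b+ cells, with adjusted p-values of 0.365, 0.347 and 0.663. In CD103+CD11b- and CD103+CD11b+ cells the DSS arrays lay above the untreated ones, and in CD103-CD11b+ cells they overlapped.

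Il1rn was separated by DSS in CD103+CD11b- cells, where the untreated arrays lay between 7.28 and 7.45 and the DSS arrays between 7.90 and 8.04. The difference was 0.59 ± 0.14 (1.51-fold, 95% interval 0.30 to 0.88, unadjusted p = 0.000419, adjusted p = 0.178). In CD103+CD11b+ cells it was -0.04 ± 0.14 and in CD103-CD11b+ cells 0.17 ± 0.14, and both groups overlapped. In CD103+CD11b- cells the mean levels of marker lists of CD11b+ cells moved with Il1rn, though not every marker did. The mean of 7 cDC2 markers, among them the sort gene Itgam, was 5.25 to 5.58 on untreated and 5.82 to 5.83 on DSS arrays. Sirpa was called at 0.83 ± 0.14 (adjusted p = 0.0215 by limma, up to 0.13 without 1 array). Itgam differed by 0.99 ± 0.20 and was not called (adjusted p = 0.084). Irf4 and Cd209a of this list went the other way, from 6.71 and 4.90 untreated to 6.42 and 4.64 after DSS. The rest of the list had higher means after DSS. The macrophage mean was 6.24 to 6.43 untreated and 6.67 to 6.78 after DSS, with 0 of 12 markers called. Their part in the Il1rn difference was not tested.

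The DSS differences of the other members were not called, and in 5 instances their groups did not overlap. Il1b differed by -0.03 ± 0.14, -0.13 ± 0.14 and 0.23 ± 0.14 in the CD103+CD11b-, CD103+CD11b+ and CD103-CD11b+ subsets, with 95% intervals that reach from -0.43 to 0.53. Il1b arrays were separated in CD103+CD11b+ cells, where the highest DSS array read 10.58 and the lowest untreated one 10.59. Il1r2 differed by -0.27 ± 0.13, -0.09 ± 0.13 and 0.11 ± 0.13, with separation in CD103-CD11b+ cells, and Nlrp3 by 0.04 ± 0.18, -0.09 ± 0.18 and 0.26 ± 0.18. Il18 was separated in CD103+CD11b- cells, at 0.50 ± 0.23 (unadjusted p = 0.0403, adjusted p = 0.8), and differed by -0.39 ± 0.23 in CD103-CD11b+ cells. Casp1 was separated in CD103+CD11b- cells too, at 0.20 ± 0.19. Over all subsets Il1rn at 0.24 ± 0.09 (unadjusted p = 0.0178, adjusted p = 0.373) and Il18bp at 0.19 ± 0.10 (adjusted p = 0.536) were separated by experiment. Il1rap and the remaining differences of Il18bp and Casp1 lay between -0.28 and 0.24.

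**Figure D4:**
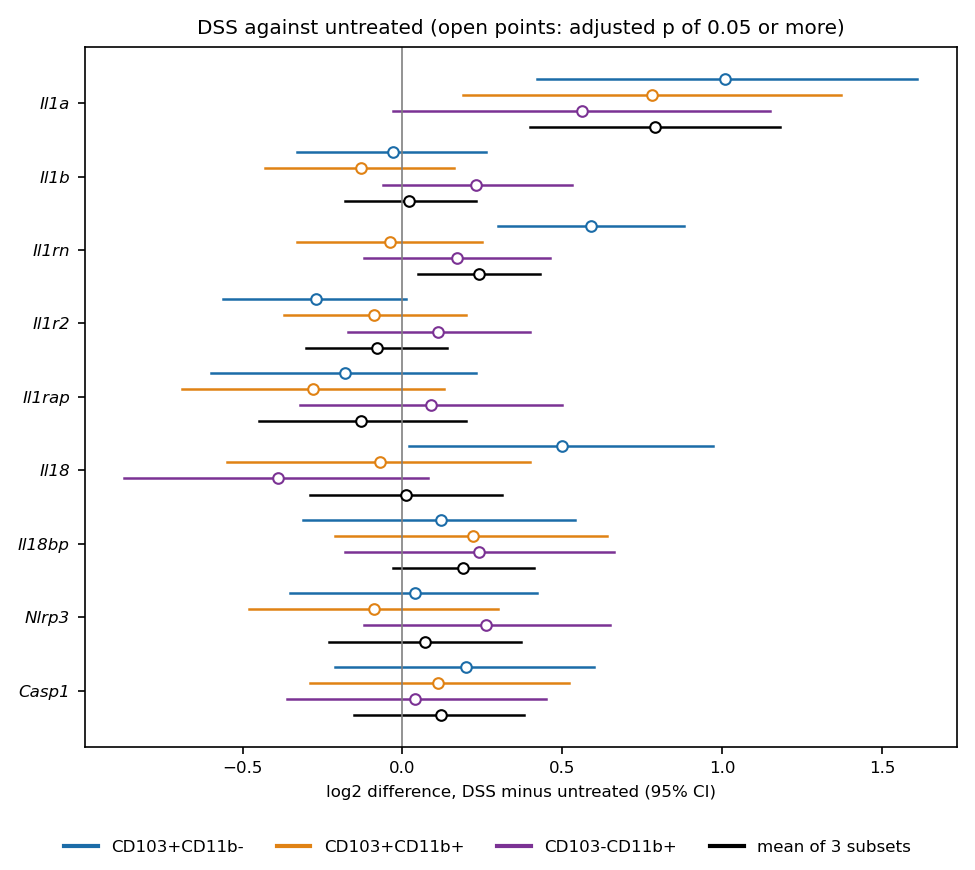
Log2 difference, DSS minus untreated (horizontal axis, with 95% intervals from limma), of the 9 measured genes in each subset and, in black, over the means of the 3 subsets. All points are open because no adjusted p was under 0.05, and the intervals of Il1a lie above 0 except that of CD103-CD11b+ cells, which starts at -0.03.

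Other genes of the pathway were called after DSS in 2 instances. Ptgs2 rose by 0.75 ± 0.14 in CD103+CD11b- cells (adjusted p = 0.0413), a call that no fit leaving out 1 of the 6 arrays kept (up to 0.228). Cxcl5, a neutrophil-attracting chemokine gene, rose by 1.04 ± 0.15 over all subsets (adjusted p = 0.0331), a call lost without experiment 1, 3, 5 or 6 (up to 0.133). The 16 response genes had a median of 0.26 over all subsets, against -0.01 for all genes. Il33 differed by 1.32 ± 0.29 in CD103-CD11b+ cells and was not called (unadjusted p = 0.000254, adjusted p = 0.118 by limma). In any comparison of DSS with untreated cells 0 of 18 inflammasome genes, 0 of 17 signalling genes and 0 of 4 receptor genes were called. Of all genes 0.129%, 0.0857% and 0.100% were called in the 3 subsets and 0.186% over all subsets. Neutrophil markers moved with DSS: the mean of the 13 listed was 3.92 to 4.17, 4.27 to 4.41 and 4.33 to 4.63 on untreated arrays of the 3 subsets and 4.29 to 4.97, 4.53 to 5.35 and 4.57 to 5.26 on DSS arrays. S100a8 averaged 4.23, 4.16 and 4.51 untreated and 6.15, 6.21 and 5.92 after DSS, and Retnlg was called over all subsets at 1.34 ± 0.18 (adjusted p = 0.0276), a call lost without experiment 1, 2, 3, 5 or 6 (up to 0.129). By contrast, the group means of Cxcr2, Elane, Ngp and Ltf stayed under 3.51 in all 6 groups. In CD103-CD11b+ cells the mean of 7 cDC1 markers was 5.66 to 5.91 on untreated and 6.20 to 6.25 on DSS arrays. The list includes the sort gene Itgae, which was called, as was Clec9a (1.40 ± 0.26, adjusted p = 0.0451 by limma). Cadm1 and Batf3 of this list were lower after DSS, at 7.24 and 5.97 untreated and 6.89 and 5.88 after DSS. Tlr3 was level, at 3.96 and 3.97, and the rest of the list had higher means after DSS. The part of these markers in the DSS values of the members and of Il33 was not tested.

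Whether the DSS difference itself differs between subsets was tested by interaction terms. By limma 0 of 9 members were called in each of the 3 interactions, where 0% of all genes were called, and 2, 1 and 0 members had an unadjusted p under 0.05. The DSS difference of Il1rn was larger in the CD103+CD11b- than in the CD103+CD11b+ subset by 0.63 ± 0.20 (95% interval 0.22 to 1.04, unadjusted p = 0.00465, adjusted p = 0.983) and than in CD103-CD11b+ cells by 0.43 ± 0.20 (unadjusted p = 0.0422, adjusted p = 1). That of Il18 was larger in the CD103+CD11b- than in the CD103-CD11b+ subset by 0.89 ± 0.32 (0.22 to 1.56, unadjusted p = 0.012, adjusted p = 1). For Il1a the corresponding difference was 0.45 ± 0.40, with an interval of -0.38 to 1.29. None of these passed the adjustment.

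The genes with the most similar profile over the 18 arrays, by Pearson's r, are given as a description. They are the highest among all tested genes, so their r is high in part by selection. The arrays share 6 groups and 6 experiments and are not independent points. For Il1rn they were Nrg1, which encodes the growth factor neuregulin 1, the lectin gene Clec4d and Sirpa, a marker of type 2 dendritic cells, each at 0.98. For Il1r2 they were Gpr183 at 0.97, the oxysterol receptor gene, Il7r at 0.96 and Hamp at 0.95, the gene of the iron regulator hepcidin. Il7r is also one of the listed T, NK and innate lymphoid markers. For Il1a they were Jmy at 0.88, Clec4a3 and the transcription factor gene Ets2 at 0.87 each, and for Il18bp Pi4k2b and Ets2 at 0.90 each and Rufy3 at 0.88. The nearest genes of Il1b (Ube2k), Il1rap (Kbtbd11), Il18 (Vti1a), Nlrp3 (Src) and Casp1 (Gcsh) reached 0.85, 0.87, 0.79, 0.82 and 0.86. Among the members Il1rn correlated with Il1r2 at 0.81, with Il18bp at 0.79 and with Il1a at 0.75, and with Il1b at -0.37.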

How the data were processed

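Gene expression was measured on 18 Affymetrix arrays. The deposited table holds log2 expression values, 1 per probe set and array, made by the authors with RMA (background correction, quantile normalization and summarization), per the submitters' processing notes, with no version given in the sources used here. The labels state that cells were freed with collagenase, and that the RNA was amplified to DNA with the Ovation Pico kit, of which 5.5 ug was fragmented and labelled. The values were used as deposited. The array medians were 3.99 to 4.09, and arrays of a group correlated at 0.965 to 0.982.

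Of 34760 probe sets, 21640 carried 1 symbol, 1321 several and 11799 none. Probe sets with several symbols or none were left out. The filter on low values kept probe sets that exceeded 3.51, the 40th percentile of the whole table, on 3 or more arrays. A gene with several kept probe sets was represented by the one with the highest mean. The level is a percentile, not a measured background, and a level of one probe set is not set against that of another.

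A linear model with 6 group means and empirical Bayes errors was fitted to all arrays with limma 3.58.1, under R 4.3.3. The 13 comparisons were two-sided, with Benjamini-Hochberg adjustment over all 14003 genes, and DSS over all subsets was fitted on 6 experiment means. Errors beside differences are limma's standard errors, and the median one between 2 groups was 0.166, a precision set by the number of arrays. The fit was tested on simulated data. The members, gene lists and marker lists were chosen with earlier results of these data known. The members are named in every comparison, the other genes of each list as counts with at most 4 called genes each way, and the 3 genes of highest correlation for each member.

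The experiment number in the titles was treated as pairing the subsets. Residuals of untreated arrays that share a number correlated, across genes, at -0.03 to 0.32 in 9 pairs (median 0.25, 8 above 0.1), against a median of -0.12 in 18 other pairs. After DSS the values were 0.11 to 0.31 (median 0.18, 9 of 9 above 0.1), against -0.13. A fit with the experiment number as a replicate block was run beside the main one. Other alternatives were no filter or one at the 50th percentile, quantile normalization again, the mean of all probe sets of a gene, trended and robust empirical Bayes, array weights, only the groups compared, and leaving out each array in turn. For genes outside the members these alternatives were chosen after seeing the data.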

Additional observations from a re-analysis of the deposited data

How the results depend on the processing

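Of 1755 values of the members under other settings, 1671 kept their direction and their side of the threshold, 9 passed it and 13 fell short of it, 62 values without a call changed sign, and none of the called ones did. The number of members called between the untreated CD103+CD11b+ and CD103-CD11b+ subsets, 0, was 1 with quantile normalization again and 0 to 1 when 1 array was left out. After DSS it was 1, and 0 in a fit on only the 2 groups compared, and 0 to 1 when 1 array was left out. Between the untreated CD103+CD11b- and CD103-CD11b+ subsets it was 4, and 3 to 6 when 1 array was left out. With the replicate block the number was 5 and 4 in place of 4 and 3 for CD103+CD11b- against CD103-CD11b+ cells, untreated and after DSS, and 3 in place of 2 for the untreated CD103+CD11b- subset against CD103+CD11b+. The cause of these changes was not tested. The block gained Il1rap and Il1a and changed no other call of a member. Every call of Il1rn and Il1r2 in CD103+CD11b- cells against the other subsets held under all settings run.

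A second quantile normalization moved the median difference of all genes by at most 0.08. Between the untreated CD103+CD11b+ and CD103-CD11b+ subsets it turned 330 higher and 245 lower calls over all genes into 225 and 327, and between the untreated CD103+CD11b- and CD103+CD11b+ subsets 387 and 573 into 507 and 473. No member had another probe set, so this alternative gave no other value. The number of arrays, 3 a group, limits the precision, and the standard error for Il1a was 0.28. Depth and background cannot be varied from RMA values.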
